A study of Homo sapiens with 6 samples.

Results

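The enzymes described here modify collagen after it is made: the lysyl oxidases LOX, LOXL1, LOXL2, LOXL3 and LOXL4, the lysyl hydroxylases PLOD1, PLOD2 and PLOD3, and P4HA1 and P4HA2, alpha subunits of collagen prolyl 4-hydroxylase. These 10 genes were chosen by symbol, with earlier results of these data known. Their counts beside those of all genes therefore describe and do not test. Of the 10, 9 had a row among the 35820 in the deposited tables, and all 9 passed the filter on low counts. Expression of LOXL4 was not analysed here. The measurements are total RNA-seq after ribosomal RNA depletion, in 3 libraries of a TOP3B knockout (KO) clone of HT1080 cells and 3 libraries of wild-type (WT) HT1080 cells. HT1080 cells are an established human line derived from a fibrosarcoma. For the clone, E2-2, CRISPR was aimed at exon 2 of TOP3B, the gene of topoisomerase III-beta, which works on RNA as well as DNA. Both groups were grown in the same serum-supplemented medium, and no treatment is named for either. The KO group is 1 clone, so the comparison is of that clone with the WT cells. In 1 place the series text calls the WT cells HCT116, but every sample label reads HT1080.

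Prolyl and lysyl hydroxylases work in the endoplasmic reticulum on nascent collagen chains, with iron, oxygen, 2-oxoglutarate and ascorbate. Hydroxyproline stabilises the collagen triple helix, and hydroxylysine carries sugars and shapes the cross-links. Lysyl oxidases are copper enzymes that act mostly outside the cell, where they oxidise lysine in collagen and elastin so that the chains become cross-linked. LOX, PLOD2, P4HA1 and P4HA2 are known targets of hypoxia-inducible factor in several cell types.

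The estimated counts summed to between 17919106 and 20475280 per library. Whether replicates are separate cultures is not stated. The p-values therefore reflect library-to-library spread, which may be technical. KO replicate 3 lay apart: over 6442 genes, the SD of its log2 difference was 0.635 from KO replicate 1 and 0.613 from KO replicate 2, against 0.238 between those 2 and at most 0.321 between WT libraries. No pair of libraries agreed within counting noise. Mitochondrial genes held 5.70% of the counts in KO replicate 3, 8.81% in KO replicate 2, 10.02% in KO replicate 1 and 8.23% to 8.51% in WT libraries, and the part of this in the results was not tested. The TOP3B transcript was at 19.3 ± 0.774 CPM (counts scaled for library size by TMM) in KO cells and 24.2 ± 5.82 CPM in WT cells (SD, n = 3 each) and did not pass the test (edgeR adjusted p = 0.342). An exon edited by CRISPR can still be transcribed, so this value does not check the labels. Of 8 mesenchymal markers 7 were tested, and their summed level, including the 1 untested, was 15157 to 16608 CPM in KO and 24085 to 25211 CPM in WT libraries. FN1 was the 1 that passed, at 3174 ± 614 CPM in KO and 11748 ± 769 CPM in WT cells (SD, n = 3 each), which is nearly all of that difference. VIM, the other large part of the sum, was at 11525 ± 173 CPM in KO and 11666 ± 594 CPM in WT cells and did not pass. Of 7 epithelial markers, all with a row, 4 were tested and 0 passed, with sums of 110.3 to 132 CPM in KO and 107 to 118 CPM in WT libraries, most of it from KRT8. The 4 endothelial markers with a row summed to at most 0.818 CPM in KO and 3.24 CPM in WT libraries, with VWF at 0 in all. The 4 immune markers with a row summed to 3.78 to 13.1 CPM in KO and 10.2 to 15.3 CPM in WT libraries, nearly all from CD68, with CD79A at 0 in all. The part of these markers in the results below was not tested. In bulk RNA, fewer cells with a transcript and less of it per cell cannot be told apart.

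The comparison asked which of these transcripts differed between the KO clone and WT cells. LOX fell 2.01-fold and P4HA2 fell 1.504-fold in KO cells. The other 7 did not pass. Across all genes tested, 1095 of 13965 (7.84%) passed at 0.05 after Benjamini-Hochberg adjustment (edgeR, quasi-likelihood test), 4.63% lower and 3.21% higher in KO cells. Among the enzymes the count was 2 of 9, both lower. In 5 of the 9 (LOX, LOXL1, LOXL3, PLOD2 and P4HA2) the KO libraries all lay below the WT libraries, where 17.1% of all genes tested did so and 33.6% had no overlap in either direction. The same 5 had an unadjusted edgeR p under 0.05, as did 24.7% of all genes tested. The median log2 fold change was -0.59 over the 9 enzymes and 0.05 over all genes tested. Both calls rested on nearly every library. LOX and P4HA2 passed without KO replicate 3 and in none of the other 5 fits with 1 library left out. In those 5 fits their edgeR adjusted p lay between 0.0560 and 0.0982. Calls over all genes fell there too, to 136 to 253 lower and 87 to 135 higher, against 647 and 448 with all libraries.

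**Figure D1:**
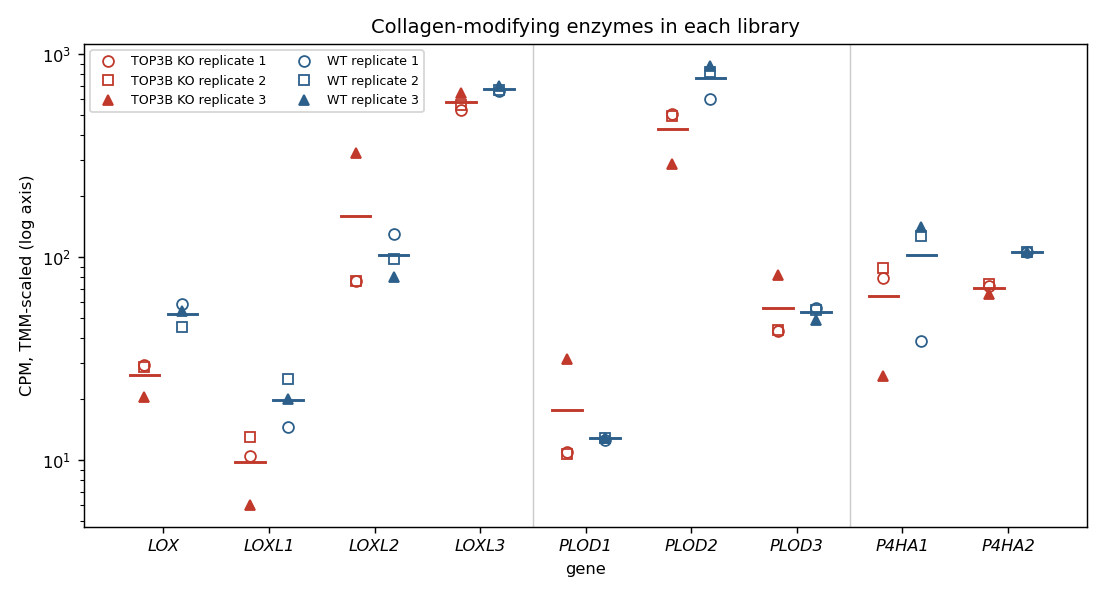
Level of each enzyme in CPM on a log axis, by gene, with KO libraries in red to the left of WT libraries in blue. Points are single libraries, with replicate 3 of each group filled, and bars are the group means of 3. LOX and P4HA2 lie lower in every KO library than in every WT library, while LOXL2, PLOD1 and PLOD3 show 1 high KO library.

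LOX is the founding lysyl oxidase and cross-links fibrillar collagen and elastin. Its level was 29.6, 28.9 and 20.4 CPM in KO replicates 1 to 3, against 58.8, 45.2 and 54.3 CPM in WT replicates 1 to 3. The groups did not overlap, and the highest KO library stood well under the lowest WT library. This was a log2 fold change of -1.004 ± 0.19 (SE), with an edgeR adjusted p of 0.0257. It lay between -1.11 and -0.86 with 1 library left out. Its gene spans 122063195 to 122078360 on chromosome 5, minus strand (GENCODE v29, GRCh38). SRFBP1, on the opposite strand, overlaps it, and was counted at 2 to 9 in KO and 9 to 12 in WT libraries.

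P4HA2 is an alpha subunit of collagen prolyl 4-hydroxylase, the part that holds the catalytic site. It was at 72.1, 73.8 and 66.1 CPM in KO replicates 1 to 3, against 106.26, 106.27 and 106.30 CPM in WT replicates 1 to 3. All KO libraries were close together and far below the WT libraries. Its log2 fold change was -0.59 ± 0.09 (SE), with an edgeR adjusted p of 0.0162, and lay between -0.62 and -0.55 with 1 library left out. The WT spread, an SD of 0.0171 CPM, was under the 2.35 CPM that counting error alone gives at a mean count of 2041. The gene lies on chromosome 5 too, from 132191838 to 132295315 on the minus strand. Its antisense neighbour P4HA2-AS1 was listed at 0 in every library.

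The stretches upstream of 4 of these genes are shown because LOX and P4HA2 are the 2 that fell, and because LOX, PLOD2 and P4HA1 hold the letters of the hypoxia response core. They are the 250 bases before the annotated start, 5′ to 3′ on the gene's strand (RefSeq, GRCh38.p14). Capitals mark ACGTG or, on the other strand, CACGT. RefSeq gives LOX 3 starts in this table, and the one farthest upstream is printed.
LOX: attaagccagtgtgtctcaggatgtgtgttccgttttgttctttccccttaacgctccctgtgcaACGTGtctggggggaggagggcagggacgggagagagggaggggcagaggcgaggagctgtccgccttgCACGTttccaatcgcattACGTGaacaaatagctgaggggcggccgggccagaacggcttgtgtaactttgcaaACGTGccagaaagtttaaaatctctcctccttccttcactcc
PLOD2: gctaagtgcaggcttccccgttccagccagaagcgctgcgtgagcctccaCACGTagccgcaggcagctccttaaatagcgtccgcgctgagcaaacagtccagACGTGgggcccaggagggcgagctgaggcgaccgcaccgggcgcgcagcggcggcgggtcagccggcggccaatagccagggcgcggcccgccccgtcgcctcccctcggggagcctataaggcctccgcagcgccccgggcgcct
P4HA1: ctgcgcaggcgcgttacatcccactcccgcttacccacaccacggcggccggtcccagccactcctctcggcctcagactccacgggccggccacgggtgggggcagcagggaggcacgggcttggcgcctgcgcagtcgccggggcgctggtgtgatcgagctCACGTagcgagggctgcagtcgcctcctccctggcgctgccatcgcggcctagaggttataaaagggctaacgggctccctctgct
P4HA2: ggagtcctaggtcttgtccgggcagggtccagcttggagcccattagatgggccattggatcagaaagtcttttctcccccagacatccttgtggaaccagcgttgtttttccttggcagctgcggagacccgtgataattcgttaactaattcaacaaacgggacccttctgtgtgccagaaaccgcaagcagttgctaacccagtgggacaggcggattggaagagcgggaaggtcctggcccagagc

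These windows are chr5:122078260-122078509 for LOX, chr3:146161185-146161434 for PLOD2, chr10:73096867-73097116 for P4HA1 and chr5:132227092-132227341 for P4HA2, all on the minus strand. GENCODE v29 has farther upstream starts for all 4 genes than the RefSeq starts used. Its spans of LOX and P4HA1 reach into their windows, and the PLOD2 and P4HA2 windows lie wholly inside the GENCODE span of the gene. The printed LOX window held ACGTG on either strand at 4 places, the PLOD2 window at 2 and the P4HA1 window at 1. The windows before LOX starts 2 and 3, not printed, held it at 1 place each. No match was found in the P4HA2 window. Of the 9 enzymes with a sequence, which are all but LOXL2, 3 had the motif before at least 1 start. Of 35116 single upstream windows of this length, 18.5% had it. Genes were counted over all their starts, so a gene with several starts had more windows to match, here and below. Windows with ACGTG at 3 or more places made up 1.55% of all. That cut was counted for ACGTG alone and is no test of the LOX window. The related core GCGTG, searched on both strands as CACGC too, was before a start of 4 of the 9 enzymes and in 32.2% of all windows. The AP-1 motif TGANTCA was in 0 of the 9 and in 6.57% of all. A match is a description of the letters in the window and not a bound site.

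LOXL1, a lysyl oxidase tied to elastic fibres, did not pass the test. It was at 10.5, 13.0 and 6.04 CPM in KO replicates 1 to 3, against 14.6, 25.1 and 19.97 CPM in WT replicates 1 to 3. The groups did not overlap, but each was wide. Its log2 fold change, -1.02 ± 0.33 (SE), had an edgeR adjusted p of 0.115. The antisense gene LOXL1-AS1 overlaps its start on the opposite strand. LOXL1-AS1 was at 54.7 CPM in KO and 44.0 CPM in WT cells on average, with a log2 fold change of 0.31 ± 0.17 (SE) that did not pass. No source used here states whether strand was used in counting, so reads of the pair cannot be told apart.

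LOXL3, which is needed for palate and cartilage development in mice, was the most abundant lysyl oxidase in both groups. Its level was 532, 560 and 646 CPM in KO replicates 1 to 3, against 663, 666 and 694 CPM in WT replicates 1 to 3. KO replicate 3 reached nearly to the WT libraries, and the other KO libraries did not. The log2 fold change was -0.22 ± 0.09 (SE), with an edgeR adjusted p of 0.198. Leaving out KO replicate 3 gave -0.31 ± 0.05 (SE), and LOXL3 passed as lower, with an edgeR adjusted p of 0.0134. That was the 1 of the 6 fits with a library left out in which LOXL3 passed. In that fit 13.2% of all genes tested passed. DOK1 overlaps LOXL3 by 6665 bases on the opposite strand. DOK1 averaged 75.8 CPM in KO and 110 CPM in WT cells and did not pass, with a log2 fold change of -0.53 ± 0.19 (SE).

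LOXL2, a lysyl oxidase that cross-links the collagen IV of basement membranes, was split among the KO libraries. It was at 76.5, 76.7 and 325 CPM in KO replicates 1 to 3, against 131, 98.5 and 80.4 CPM in WT replicates 1 to 3. KO replicate 3 was 4.24 times the mean of the other KO libraries, which both lay below every WT library. With all libraries the log2 fold change was 0.63 ± 0.58 (SE, edgeR adjusted p = 0.547). With KO replicate 3 left out it was -0.44 ± 0.20 (SE, edgeR adjusted p = 0.208), and neither passed. ENTPD4 overlaps LOXL2 on the same strand by 39546 bases and had a log2 fold change of -0.49 ± 0.16 (SE), which did not pass.

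**Figure D2:**
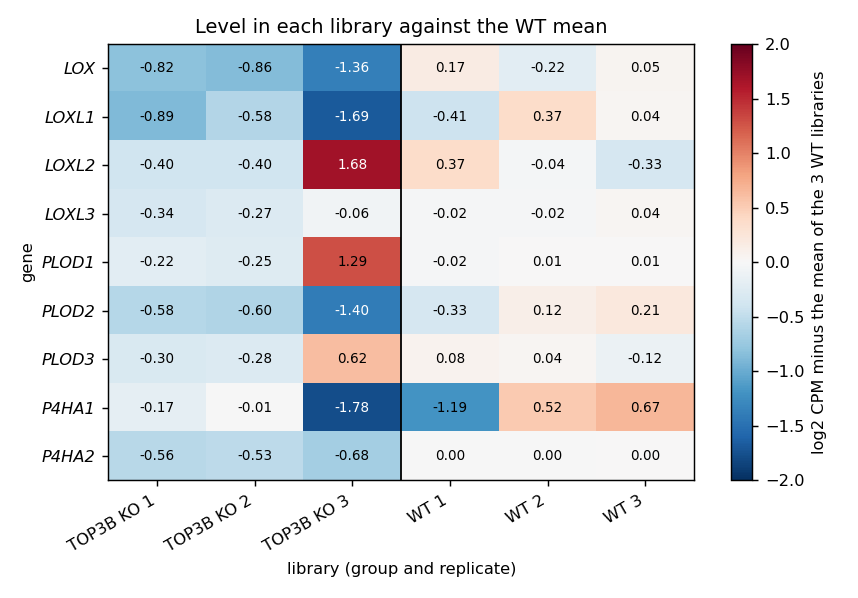
Log2 CPM of each enzyme (rows) in each library (columns, KO left of WT) minus the mean of the 3 WT libraries. KO replicates 1 and 2 are negative for every enzyme, while KO replicate 3 is at 1.68, 1.29 and 0.62 for LOXL2, PLOD1 and PLOD3 and at -1.69, -1.40 and -1.78 for LOXL1, PLOD2 and P4HA1.

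Among the lysyl hydroxylases, PLOD2 makes the hydroxylysine of collagen telopeptides, the form used in the stiffer cross-links of bone and scar tissue. It was the most abundant of the 3 in counts, at 508, 498 and 287 CPM in KO replicates 1 to 3, against 602, 822 and 876 CPM in WT replicates 1 to 3. The groups did not overlap, with WT replicate 1 nearest to the KO libraries and KO replicate 3 farthest below. PLOD2 did not pass (log2 fold change -0.83 ± 0.24 SE, edgeR adjusted p = 0.0916). With KO replicate 3 left out the log2 fold change was -0.62 ± 0.16 (SE), at an edgeR adjusted p of 0.0536. DESeq2, run as an alternative, called PLOD2 and LOXL1 lower as well, with adjusted p of 0.0111 and 0.0284, and so 4 of the 9 enzymes. DESeq2 called 15.8% of the 13949 genes to which it gave an adjusted p, and 9.2% as lower.

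PLOD1 hydroxylates lysine in the triple helix, and PLOD3 adds sugars to hydroxylysine as well as making it. PLOD1 was at 11.02, 10.8 and 31.4 CPM in KO replicates 1 to 3, against 12.6, 12.9 and 12.9 CPM in WT replicates 1 to 3. PLOD3 was at 43.4, 44.1 and 82.2 CPM in KO replicates 1 to 3, against 56.4, 55.2 and 49.2 CPM in WT replicates 1 to 3. For both, 2 KO libraries lay below all WT libraries and KO replicate 3 lay above them. The log2 fold changes, 0.47 ± 0.43 for PLOD1 and 0.08 ± 0.26 for PLOD3 (SE), did not pass. Both turned negative without KO replicate 3, at -0.24 ± 0.14 and -0.30 ± 0.10 (SE), and did not pass. ZNHIT1 overlaps PLOD3 by 753 bases on the opposite strand, with a log2 fold change of 0.11 that did not pass.

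P4HA1, the alpha subunit most cell types use, varied within both groups. It was at 78.8, 88.4 and 25.9 CPM in KO replicates 1 to 3, against 38.8, 128 and 141 CPM in WT replicates 1 to 3. KO replicate 3 was the lowest of all and WT replicate 1 the next lowest, so the groups overlapped. P4HA1 did not pass, at a log2 fold change of -0.67 ± 0.58 (SE) and an edgeR adjusted p of 0.518. This was -1.08 without WT replicate 1, -0.38 without WT replicate 3 and -0.31 without KO replicate 3, and passed in none of these. P4HB, the beta subunit that pairs with both alpha subunits, was listed at 0 in every library, and PPIB, a chaperone of procollagen, at 2 to 8 counts in KO and 3 to 9 counts in WT libraries. Secretory cells generally use both genes, so counts this low in the table are not read as absence of the transcript.

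The position of KO replicate 3 recurred across the enzymes. It was the highest of all 6 libraries in 3 of the 9 and the lowest in 5, where 29.1% and 27.3% of all genes tested had it highest and lowest. KO replicates 1 and 2 both lay below every WT library in 8 of the 9, all but P4HA1, where 23.5% of all genes tested did so. Without KO replicate 3 all 9 log2 fold changes were negative, with a median of -0.44, against 0.01 over all genes tested in that fit. In that fit LOX, LOXL3 and P4HA2 passed, 3 of 9, where 13.2% of 14358 genes passed and 7.84% were lower.

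**Figure D3:**
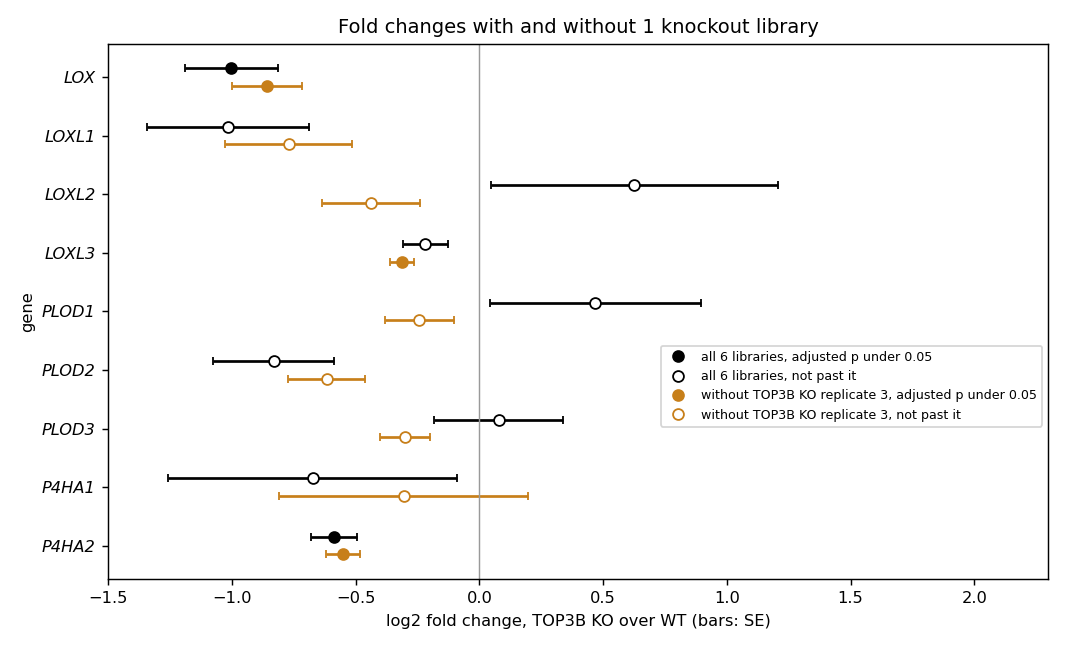
Log2 fold change of each enzyme, KO over WT, with SE bars, from all 6 libraries (black) and without KO replicate 3 (orange). Filled points passed an edgeR adjusted p of 0.05. LOXL2, PLOD1 and PLOD3 are below 0 without that library and above 0 with all 6, while LOX and P4HA2 are at -1.004 and -0.59 with all libraries and at -0.86 and -0.55 without that library.

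Ratios of family members within a library do not depend on how libraries are scaled. PLOD2 stood to PLOD1 in estimated counts as 46.1, 46.2 and 9.13 in KO replicates 1 to 3, against 47.6, 63.6 and 68.0 in WT replicates 1 to 3. Each KO value was below each WT value, and KO replicate 3 was far lower than the rest. The difference in mean log2 ratio was -1.14, with an exact two-sided permutation p of 0.1, the smallest that 3 against 3 can give, and 0.2 when adjusted over the 4 ratios computed. LOXL2 stood to LOX as 2.58, 2.65 and 15.9 in KO and 2.22, 2.18 and 1.48 in WT libraries, a log2 difference of 1.31 with the same exact permutation p and adjusted p. Without KO replicate 3 these differences were -0.36 and 0.44. P4HA2 over P4HA1 (log2 difference 0.06, exact permutation p = 0.7) ran from 0.834 to 2.55 in KO and from 0.752 to 2.74 in WT libraries. PLOD3 over PLOD1 (log2 difference -0.26, exact permutation p = 0.3) ran from 2.62 to 4.09 in KO and from 3.82 to 4.46 in WT libraries. Neither separated the groups.

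Levels can be compared between genes only per length, and the length matters here. The deposited RPKM values (reads scaled for gene length and library depth) imply 2.91 kb for PLOD3, 11.5 kb for LOX, 61.0 kb for PLOD2 and 69.1 kb for P4HA1, where the exons in GENCODE v29 sum to 5.67, 5.55, 7.65 and 3.09 kb and the genes span 12.4, 15.2, 94.2 and 89.8 kb. For 8 of the 9 enzymes the implied length was over the summed exons and under the gene's span, and for PLOD3 it was under both. Whether spliced or unspliced sequence was quantified is not stated, so the counts and RPKM may cover introns. On the RPKM scale LOXL3 was highest, at 32.9 ± 4.43 in KO and 36.8 ± 1.39 in WT cells (SD, n = 3 each). PLOD3 followed at 19.95 ± 8.53 in KO and 18.02 ± 1.13 in WT cells, and PLOD2 at 7.15 ± 1.89 in KO and 12.3 ± 2.38 in WT cells. In KO cells LOXL2 came next at 4.89 ± 4.55 RPKM, then P4HA2 at 2.58 ± 0.0729 and LOX at 2.33 ± 0.390, neighbours that overlapped within their spread. In WT cells LOX was at 4.52 ± 0.633 RPKM, P4HA2 at 3.74 ± 0.0518 and LOXL2 at 2.99 ± 0.731, with P4HA2 and LOXL2 overlapping and LOX above P4HA2 in every library. PLOD1, P4HA1 and LOXL1 were the lowest and overlapped one another in KO cells, at 1.12 ± 0.786, 0.939 ± 0.477 and 0.776 ± 0.262 RPKM in KO and 0.766 ± 0.0124, 1.46 ± 0.794 and 1.52 ± 0.392 RPKM in WT cells.

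Within the lysyl oxidases, LOXL3 made up 81.1% ± 5.16 of the summed RPKM in KO and 80.3% ± 1.66 in WT cells (SD, n = 3 each). The share of LOX was 5.96% ± 1.95 in KO and 9.85% ± 1.17 in WT cells, and its groups did not overlap. With exonic lengths LOXL3 still held 80.2% in KO and 82.4% in WT cells. Among the lysyl hydroxylases the choice of length decided which was largest. PLOD3 held 68.9% in KO and 58.1% in WT cells by RPKM, and 15.2% and 8.65% by exonic length, where PLOD2 held 79.6% in KO and 89.2% in WT cells. P4HA2 likewise held 74.4% in KO and 73.2% in WT cells by RPKM, and 32.1% in KO and 31.5% in WT cells by exonic length. The order of PLOD2 and PLOD3, and that of P4HA1 and P4HA2, can therefore not be read from the files alone. PLOD1 was the lowest lysyl hydroxylase in every library with either length.

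The partners of these enzymes were read from the same fit. For each list of partners, the values over all genes tested were 4.63% lower, 3.21% higher and a median log2 fold change of 0.05. Of all genes tested, 33.6% had no overlap between the groups. In a gene named for its call, lack of overlap is therefore a description and no further test. Of 29 genes of procollagen folding, export and propeptide processing, 28 had a row and 19 were tested. In KO cells 3 of these fell and 1 rose, 15 were not called, and the median log2 fold change was -0.25. FKBP14, a prolyl isomerase of the endoplasmic reticulum, was at 6.89, 7.05 and 6.24 CPM in KO, against 11.5, 13.5 and 13.97 CPM in WT libraries (log2 fold change -0.95 ± 0.17 SE, edgeR adjusted p = 0.0238). ADAMTS2, which removes the amino propeptide of procollagen, was at 66.0, 68.6 and 77.5 CPM in KO, against 44.1, 35.1 and 40.1 CPM in WT libraries (log2 fold change 0.83 ± 0.13 SE, edgeR adjusted p = 0.0166). In both, the groups stood apart without overlap. The other 2 that fell were BMP1, which removes the carboxyl propeptide, and MIA3, which loads procollagen for export, at log2 fold changes of -0.77 ± 0.12 and -0.57 ± 0.12 (SE). MIA3 was named after its value was seen. FKBP14 and MIA3 each passed in 1 of the 6 fits with a library left out, and ADAMTS2 and BMP1 in 2.

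**Figure D4:**
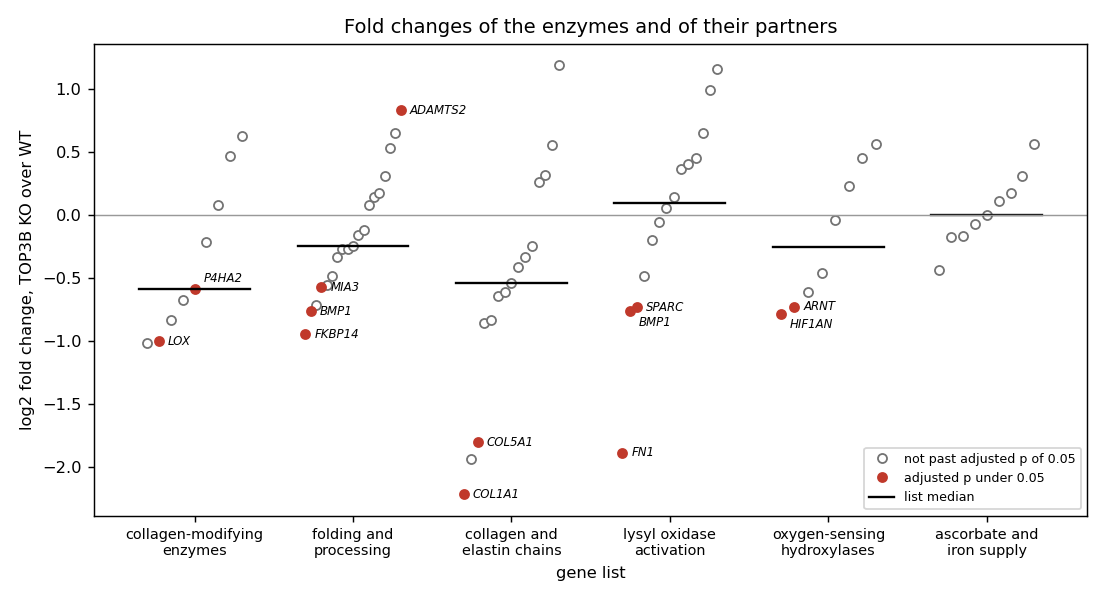
Log2 fold change, KO over WT, of each tested gene in the enzymes and in 5 lists of partners. Filled points passed an edgeR adjusted p of 0.05 and carry the gene's name, and lines are list medians. ADAMTS2 is the 1 named gene above 0.

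Of 20 collagen and elastin chains that the enzymes act on, 15 were tested, with 2 lower, none higher and a median log2 fold change of -0.54. COL1A1, a chain of type I collagen, was at 0.787, 1.41 and 1.79 CPM in KO, against 6.66, 6.14 and 5.80 CPM in WT libraries. COL5A1, a chain of the type V collagen that sets fibril width, was at 3.25, 2.82 and 2.20 CPM in KO, against 9.28, 9.68 and 9.94 CPM in WT libraries. Neither overlapped between groups, and their log2 fold changes were -2.22 ± 0.35 and -1.80 ± 0.23 (SE, edgeR adjusted p = 0.0156 and 0.00830). COL5A1 passed with each library left out and COL1A1 in 2 of the 6 fits. By far the most abundant of the chains was COL6A3, a chain of type VI collagen named after its values were seen. It was at 2895, 2873 and 4131 CPM in KO, against 5371, 4905 and 4858 CPM in WT libraries, and did not pass (edgeR adjusted p = 0.0552). Without KO replicate 3 COL6A3 fell (log2 fold change -0.82 ± 0.05 SE, edgeR adjusted p = 0.00149). That was the 1 of the 6 fits with a library left out in which COL6A3 passed.

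Of 17 genes of copper supply, secretion and matrix partners of lysyl oxidases, 16 had a row and 14 were tested. Of these 3 fell, none rose and the median log2 fold change was 0.10. They were BMP1, which also cuts the LOX propeptide, FN1, the fibronectin to which LOX binds, and SPARC, a collagen-binding matrix protein named after its value was seen. BMP1 was at 54.1, 63.0 and 68.8 CPM in KO, against 106.3, 103 and 106.4 CPM in WT libraries (edgeR adjusted p = 0.0141). FN1 was at 3495, 3561 and 2466 CPM in KO, against 11214, 11400 and 12630 CPM in WT libraries (log2 fold change -1.89 ± 0.15 SE, edgeR adjusted p = 0.00214). SPARC was at 3468, 3632 and 3235 CPM in KO, against 5784, 5866 and 5530 CPM in WT libraries (log2 fold change -0.73 ± 0.07 SE, edgeR adjusted p = 0.00371). All 3 were far lower in every KO library, and FN1 and SPARC passed with each library left out. The copper transporters and chaperones tested were ATP7B, SLC31A1, SLC31A2, ATOX1 and CCS. None passed in edgeR or in DESeq2, and none had an unadjusted edgeR p under 0.05. SLC31A1 and SLC31A2 averaged only 0.837 and 0.567 CPM, where a change could be missed. ATP7A, also on this list, had no row, so copper supply was measured only in part.

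The oxygen-sensing hydroxylases use the same cofactors as the collagen hydroxylases. Of 10 genes for such hydroxylases, subunits of hypoxia-inducible factor and VHL, which marks the factor for degradation, 9 had a row and 8 were tested: 2 fell and none rose, with a median log2 fold change of -0.25. HIF1AN, the asparaginyl hydroxylase that restrains the factor, was at 18.2, 19.4 and 17.9 CPM in KO, against 32.8, 33.0 and 29.9 CPM in WT libraries (log2 fold change -0.79 ± 0.12 SE, edgeR adjusted p = 0.0155). ARNT, its constitutive subunit, was at 27.5, 23.3 and 28.3 CPM in KO, against 45.0, 48.8 and 37.4 CPM in WT libraries (log2 fold change -0.73 ± 0.15 SE, edgeR adjusted p = 0.0354). Neither gene overlapped between the groups. Each passed in 1 of the 6 fits with a library left out, the one without KO replicate 3. EGLN1 had no row, and EGLN3, at 8 to 18 counts in KO and 6 to 14 in WT libraries, was not tested. The other hydroxylases tested, EGLN2 and P4HTM, had log2 fold changes of 0.23 ± 0.15 and 0.45 ± 0.13 (SE) and did not pass in edgeR. These 4 were named after their values were seen. The oxygen-sensing hydroxylases were thus measured only in part.

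For 1 enzyme of each family, the genes outside the list with the most similar profile over the 6 libraries were sought among 7819 genes of at least 10 CPM. The measure was the root mean square difference of log2 CPM after centring each gene. For LOX these were CCDC149, XPNPEP3 and DNASE1L1, at 0.0718, 0.0834 and 0.0997, where the median over all candidates was 0.578. For P4HA2 they were SPOCD1, JMJD6 and ATP5MK, at 0.0243, 0.0334 and 0.0348, with a median of 0.368. For PLOD2, the most abundant lysyl hydroxylase by CPM, they were CDC42BPA, EXOC1 and NEGR1, at 0.0563, 0.0874 and 0.0981, with a median of 0.562. Being the smallest of 7819 distances over 6 libraries, these lie far under the median by choice. Shared regulation was not tested.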

How the data were processed

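The authors deposited, for each gene in each library, an estimated count and an RPKM. Salmon 1.10.1 and hg19 are named in the submitters' processing notes, without saying what each was used for. Libraries were directional per the labels' protocols, and use of strand in counting is not stated. Deposited counts are whole numbers and were used as such, and RPKM served only to compare genes per length and in 2 alternatives. Of 35820 rows, 1 that the tables name differently (E2F1 and E2F2) was left out. No hg19 position is used.

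Groups followed the labels. KO replicate numbers follow the order of deposition and pair nothing. Genes were filtered with filterByExpr and tested by quasi-likelihood in edgeR 4.0.16 under R 4.3.3 after TMM scaling. P-values of 13965 genes were adjusted by Benjamini-Hochberg and read at 0.05, on 4 residual degrees of freedom. SE came from the F statistic. Ratios used an exact permutation test in SciPy 1.17.1. The tests were tried on simulated data in which no library stood apart as KO replicate 3 did. That trial therefore does not cover this feature of the data. Alternatives used DESeq2 1.42.0 and limma 3.58.1.

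The enzymes and lists were chosen with earlier results of these data known. Named were all enzymes, TOP3B, in each list up to 2 called genes of largest fold change with 1 CPM or more on average (when calls went both ways, 1 each way), or, with no calls, its 2 most abundant genes, and the 3 genes of at least 10 CPM most like the called enzyme with the smallest adjusted p in each family, or its most abundant one. Other names are stated as such.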

Additional observations from a re-analysis of the deposited data

How the results depend on the processing

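Over 15 alternatives and 9 enzymes, 119 of 135 log2 fold changes kept their sign and their side of the threshold. LOX and P4HA2 each lost their call in 5 fits with a library left out. LOXL2, PLOD1 and PLOD3 turned to -0.44, -0.24 and -0.30 without KO replicate 3, and reached at most 0.96, 0.72 and 0.24 in the other fits with a library left out. With a library left out, 223 to 1899 genes were called (87 to 774 higher, 136 to 1125 lower), 0 to 3 enzymes, 0 to 6 folding and processing genes, 1 to 4 collagen and elastin chains, 2 to 3 lysyl oxidase activation genes, 0 to 3 oxygen-sensing genes and 0 to 1 ascorbate and iron genes. DESeq2 called 2199 genes (916 higher, 1283 lower) and 4 enzymes, all lower. It called 5 of 15 collagen and elastin chains and 1 of 9 ascorbate and iron genes, all lower. Of 8 oxygen-sensing genes DESeq2 called 4, with 1 higher and 3 lower. DESeq2 size factors in edgeR gave 1 ascorbate and iron gene, and limma on log2 RPKM (pseudocount 1 or 0.1) gave 1 oxygen-sensing gene. The cause was not tested. Scaling by library size alone moved the median of all genes to 0.11 and the members' median to -0.53, and the same 2 enzymes passed. Its calls split as 535 higher and 581 lower, against 448 and 647 with TMM.

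With a library left out, the log2 ratio differences ran from -0.45 to 0.66 for P4HA2 over P4HA1 (-0.20 and -0.27 without WT replicates 2 and 3, -0.45 without KO replicate 3), from -1.53 to -0.36 for PLOD2 over PLOD1, from -0.38 to -0.06 for PLOD3 over PLOD1 and from 0.44 to 1.75 for LOXL2 over LOX. KO minus WT shares ran, in points, from -4.57 to -2.78 for LOX, -1.77 to -0.800 for LOXL1, -0.256 to 6.73 for LOXL2, -0.721 to 3.83 for LOXL3, 0.313 to 1.70 for PLOD1, -15.6 to -4.99 for PLOD2, 4.68 to 13.99 for PLOD3, -8.17 to 4.80 for P4HA1 and -4.80 to 8.17 for P4HA2. With exonic lengths the PLOD1 difference was 3.02 in place of 1.22. No paired analysis was possible because the KO labels carry no replicate numbers. With 3 libraries per group, spread within either group limits what can be called. The SD in CPM was larger in WT than in KO cells for LOX, LOXL1, PLOD2 and P4HA1. It was larger in KO cells for LOXL2, LOXL3, PLOD1, PLOD3 and P4HA2. The part of KO replicate 3 in the missing calls was not tested.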

Other observations

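Of 11 genes for ascorbate, iron and 2-oxoglutarate supply, on which the collagen hydroxylases depend, 10 had a row and 9 were tested. In edgeR's test 0 passed. SLC2A1 was the 1 with an unadjusted p below 0.05 and the 1 that DESeq2 called. The 2 most abundant were FTH1, the ferritin heavy chain, and SLC2A1, a glucose transporter that also carries oxidised ascorbate. FTH1 was at 439, 428 and 840 CPM in KO, against 538, 427 and 414 CPM in WT libraries, with KO replicate 3 again apart. SLC2A1 was at 373, 412 and 316 CPM in KO, against 487, 504 and 504 CPM in WT libraries, without overlap, and its edgeR adjusted p was 0.0552. Over the alternatives the adjusted p ran between 0.00543 and 0.170. With KO replicate 3 left out SLC2A1 fell (log2 fold change -0.35 ± 0.06 SE, edgeR adjusted p = 0.0154). That was the 1 of the 6 fits with a library left out in which SLC2A1 passed.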
